A study of Mus musculus with 30 samples.

Results

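Ctnnd1 encodes p120-catenin (catenin delta 1), and 3 of the 16896 probes on the array are annotated to it. Every probe with this annotation was taken and kept apart: BG078022, BG071010 and BG073009, each named by the accession of its expressed sequence tag. The gene was selected on measured values, because BG078022 and BG071010 moved in opposite directions between COX-2-/- and COX-2+/+ cortex. That comparison is therefore given as a description without a test, and so is every other comparison that uses either of its cortex groups.

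RNA of brain tissue from mice aged 12 weeks was reverse transcribed with a radioactive label and read on nylon cDNA arrays, of which there were 30, in 10 groups of 3. The mice lacked cyclooxygenase 1 (COX-1-/-) or cyclooxygenase 2 (COX-2-/-), had a single working COX-2 allele (COX-2+/-), or were wild type for the line concerned (COX-1+/+ and COX-2+/+). Cerebral cortex and hippocampus were taken from each of these 5 genotypes. All groups shared the same mixed genetic background of C57BL6 and another inbred strain, the deletions are constitutive, and the lines were bred separately, each with its own wild-type mice. The methods speak both of several mice in a group and of repeated hybridisation of each sample, so the p-values below measure the spread among arrays, which may be technical. Probes for the deleted genes were not found by symbol, so the deletions were not checked here.

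Catenins are the cytoplasmic partners of cadherins, the calcium-dependent adhesion molecules of cell junctions and synapses. p120-catenin binds the juxtamembrane stretch of classical cadherins and keeps them at the cell surface. Beta-catenin, which binds further along the same cadherin tail, is also the effector of canonical Wnt signalling. In neurons p120-catenin is known for its part in dendritic spines. The gene is transcribed into many splice forms, and the files carry neither the sequence of a probe nor its place in a transcript, so which exons each probe reads was not analysed here.

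The values are Z scores of ln intensity on each array. A Z of 0 is the mean of the probes and 1 unit is 1 SD, so differences in Z cannot be read as fold changes. The table falls into a first and a second section of equal length that were standardised separately, and levels of different probes are not set against each other. BG078022 lies in the first section, where 5 of the 6 COX-1 cortex arrays hold identical values, and it was left out for COX-1 cortex. The other probes lie in the second section, where arrays of a group correlated with r from 0.984 to 0.993. The study's rule for a changed probe asks for a z ratio past 1.5 in size, a Z test P below 0.05 and, across both groups, a mean Z over 0. The z ratio was taken here as the difference between 2 group means over the SD that such differences have over the array. The methods word the divisor as the SD of all genes on an array, so the calls here need not be those of the study. Differences were also tested with limma over all probes with a mean Z above 0, with Benjamini-Hochberg adjustment. BG078022 and BG071010 had mean Z above 0 in every comparison. BG073009 had a mean Z of -0.263 over its 30 arrays and was below 0 on each of them. It was therefore outside the probes open to a call by the rule or limma in every comparison. The tests of differences between probes on an array and of correlations did include it.

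**Figure D1:**
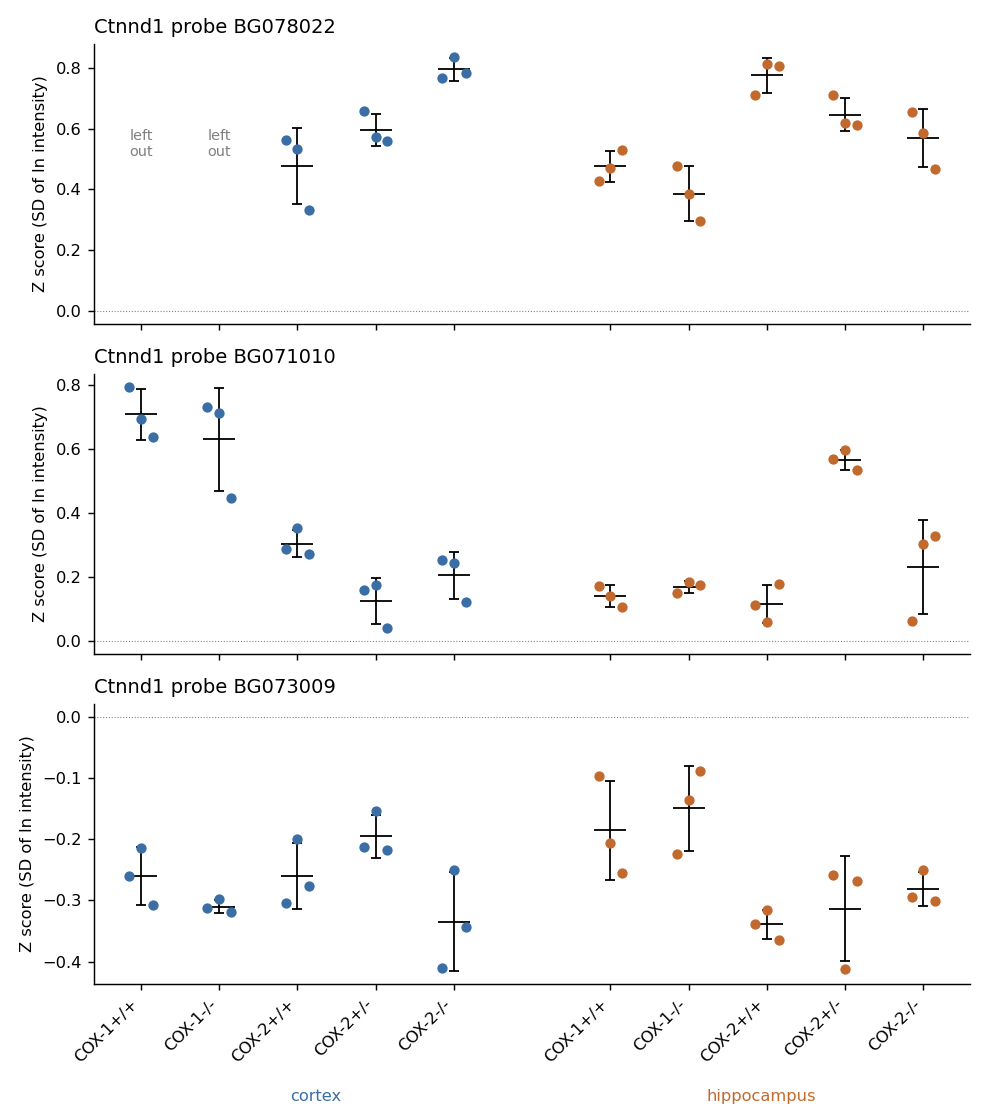
Z score (in SD of the ln intensity of an array) of the 3 Ctnnd1 probes on every array, by genotype in cortex (blue) and hippocampus (orange), with the mean and SD of each group in black. BG078022 is highest in COX-2-/- cortex at 0.795, BG071010 in COX-1+/+ cortex at 0.709, and BG073009 stays below 0 on all arrays.

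The probes differed in how widely their group means were spread. The SD of the group means was 0.145 at BG078022, larger than at 93.1% of the probes of its section, where the median was 0.0772. At BG071010 it was 0.227, larger than at 98.5% of the probes of its section, where the median was 0.0645. At BG073009 it was 0.0662, larger than at 52.5% of them. The ranks of BG078022 and BG071010 both include the contrast on which the gene was selected, and are descriptions.

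In COX-2+/+ cortex, BG078022 read 0.562, 0.534 and 0.333 on the 3 arrays. In COX-2-/- cortex it read 0.765, 0.836 and 0.783. The null arrays all lay above the wild-type arrays. The difference was 0.319 in Z, a z ratio of 3.15. At the same arrays BG071010 read 0.288, 0.352 and 0.273 in wild type and 0.253, 0.243 and 0.121 in null mice. Its null arrays all lay below the wild-type arrays, with a difference of -0.0984 and a z ratio of -0.972. BG073009 had a z ratio of -0.735 and its groups overlapped. Over all probes, 4.32% met the rule in this comparison and 16.9% had groups that did not overlap.

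COX-2+/- cortex shares those wild-type arrays. BG078022 read 0.657, 0.573 and 0.559 there, between the wild-type and null means, and the highest wild-type array, at 0.562, exceeded the lowest heterozygous one. BG071010 read 0.159, 0.176 and 0.0419, below all wild-type arrays. The difference of -0.179 at BG071010 had a z ratio of -1.67, which was -1.15 without COX-2+/- replicate 3 and -1.37 with the median of its neighbours in the table's layout subtracted. That of 0.120 at BG078022 had a z ratio of 1.12, and was 0.0480 without COX-2+/+ replicate 3. In this comparison 3.26% of all probes met the rule, 0% passed limma, and 15.8% had groups that did not overlap.

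In COX-1-/- cortex neither of the probes measured there differed from COX-1+/+ beyond the spread of the arrays. BG071010 read 0.795, 0.694 and 0.638 in wild type and 0.732, 0.714 and 0.446 in null mice. The groups overlapped, and 1 null array lay far below the other two. The difference was -0.0784 (95% interval from -0.231 to 0.0741, limma adjusted p = 0.665). BG073009 differed by -0.0494 (95% interval from -0.152 to 0.0527). Among probes of the second section, 2.71% met the rule, 0.0488% passed limma and 17.5% had groups that did not overlap. The COX-1-/- effect at BG071010 was not shown to differ between the regions: hippocampus minus cortex gave 0.108 ± 0.0957 (SE), with a limma adjusted p of 0.607, against 1.19% of probes called.

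Of the 9 genotype differences in hippocampus, 3 comparisons at each of 3 probes, the largest was that of BG071010 in COX-2+/- mice. The probe read 0.112, 0.0587 and 0.178 in COX-2+/+ hippocampus and 0.568, 0.597 and 0.535 in COX-2+/- hippocampus. Every heterozygous array lay well above every wild-type array, and above every array of the other hippocampus groups. The difference was 0.450 ± 0.0601 (SE, 95% interval from 0.322 to 0.579), with a z ratio of 3.77 and a limma adjusted p of 0.00328. In this comparison 6.21% of all probes met the rule, 2.82% passed limma and 30.4% had groups that did not overlap. Under each alternative model or normalisation tried the limma adjusted p lay between 0.000425 and 0.0183, and without any single array between 0.0120 and 0.0289. A filter at a mean Z above 0.5 left the probe out of the test.

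The other probes of the gene did not move with BG071010 in COX-2+/- hippocampus. BG078022 read 0.710, 0.812 and 0.805 in wild type and 0.709, 0.617 and 0.613 in heterozygous mice, the highest heterozygous array just below the lowest wild-type one. That difference was -0.129 (95% interval from -0.255 to -0.00410), with a z ratio of -1.08 and a limma adjusted p of 0.252. BG073009 differed by 0.0257 (95% interval from -0.0890 to 0.140), and its groups overlapped. The change at BG078022 minus the change at BG071010 was -0.580, computed from the difference of the probes on each array. The exact two-sided permutation test of this quantity over arrays gave p = 0.1, the smallest that 3 arrays against 3 allow, and 0.2 after adjustment over the 10 such tests made. In COX-2-/- hippocampus it was -0.321, with the same p.

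Of the marker probes, 1 was called in COX-2+/- hippocampus, that of a gene listed as a hippocampal marker. Over all probes 6.21% met the rule and 2.82% passed limma in this comparison. Ttr, the transthyretin gene of choroid plexus, was the only one of 6 choroid plexus and ependyma markers on the array. Its mean Z was 1.58 ± 1.04 in COX-2+/+ and 0.994 ± 0.841 in COX-2+/- hippocampus (SD, n = 3), and the groups overlapped. In the cortex of the same genotypes it was 0.199 ± 0.0248 and 0.691 ± 0.778, also with overlap. Of 8 probes for 4 of the 9 hippocampal markers, 3 had a mean Z above 0 and could be called. All 3 were higher in COX-2+/- hippocampus (median difference 0.139). The one called was BG084302 of Calb1, which encodes the calcium buffer calbindin, with a difference of 0.424 (limma adjusted p = 0.0275), which also met the rule. Other Calb1 probes did not all rise with it. In COX-2+/- and COX-2+/+ hippocampus BG071405 had means of 0.279 and 0.140, BG076015 -0.807 and -0.671, and BG072229 -0.564 and -0.594. The probe of Lct, another listed marker, had means of -0.504 and -0.249. That of Zbtb20 had means of -0.0105 and -0.0457. The probes of Meis2 had means of 0.00841 and -0.00691 at BG067314, and of -0.132 and -0.111 at BG087115. In COX-2+/- cortex BG084302 differed by -0.205 (z ratio -1.91). This probe was not higher in hippocampus throughout, and its mean over groups was 0.113 there and 0.238 in cortex. Hippocampus minus cortex was -0.526 in COX-1+/+ and -0.284 in COX-1-/- mice (limma adjusted p = 5.36e-05 and 0.0109). It was 0.359 in COX-2+/- mice (limma adjusted p = 0.00410). Probes for other markers were 3 for neurons, 3 for astrocytes, 2 for microglia, 2 for endothelium, 1 for cortex and that of Ttr. Of these, 0 met the rule or passed limma in COX-2+/- hippocampus. Only those with a mean Z above 0 could be called: 2 for neurons, 2 for astrocytes, 1 for microglia, 1 for endothelium, 0 for cortex and that of Ttr. The 2 for neurons and the 2 for astrocytes were lower in COX-2+/- mice (median differences -0.125 and -0.114). That for microglia was higher, at 0.126, and that for endothelium differed by 0.00234. No oligodendrocyte marker was measured. The part of tissue composition in the BG071010 difference was not tested, and in tissue RNA a change in the share of a cell type cannot be told apart from a change per cell.

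In COX-2-/- hippocampus it was BG078022 that met the study's rule. It read 0.655, 0.585 and 0.468, all below the wild-type values of 0.710, 0.812 and 0.805. The difference was -0.206 ± 0.0586 (SE, 95% interval from -0.331 to -0.0808), with a z ratio of -1.97, opposite in sign to that in cortex. limma gave an adjusted p of 0.295. The z ratio was -1.48, short of the rule, without COX-2-/- replicate 3, and -0.478 with the wild types of the COX-1 and COX-2 lines pooled as control. BG071010 read 0.0609, 0.304 and 0.329 in null mice, a difference of 0.115 (95% interval from -0.0136 to 0.244, z ratio 1.10, limma adjusted p = 0.444). Its groups overlapped, and without COX-2-/- replicate 1, the low array, its z ratio was 1.59 and met the rule. BG073009 differed by 0.0576 (95% interval from -0.0571 to 0.172), and its groups did not overlap. Over all probes 4.09% met the rule, 0% passed limma and 17.5% had groups that did not overlap. With limma, 985 of the 8040 probes tested had an unadjusted p under 0.05.

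In COX-1-/- hippocampus neither BG078022 nor BG071010 passed limma or met the study's rule. BG078022 read 0.428, 0.469 and 0.530 in wild type and 0.476, 0.384 and 0.295 in null mice, a difference of -0.0908 (95% interval from -0.216 to 0.0345, limma adjusted p = 0.473). BG071010 read 0.173, 0.142 and 0.105 in wild type and 0.148, 0.184 and 0.175 in null mice, a difference of 0.0296 (95% interval from -0.0990 to 0.158). BG073009 differed by 0.0361 (95% interval from -0.0786 to 0.151). Groups overlapped at all 3 probes, against 20.5% of probes without overlap, 4.8% that met the rule and 0.31% that passed limma. The effects of the 2 deletions in hippocampus were not shown to differ. The COX-2 effect minus the COX-1 effect was -0.115 ± 0.0828 (SE) at BG078022 and 0.0854 ± 0.0850 at BG071010, with limma adjusted p of 0.770 and 0.832. That contrast called 0% of probes.

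**Figure D2:**
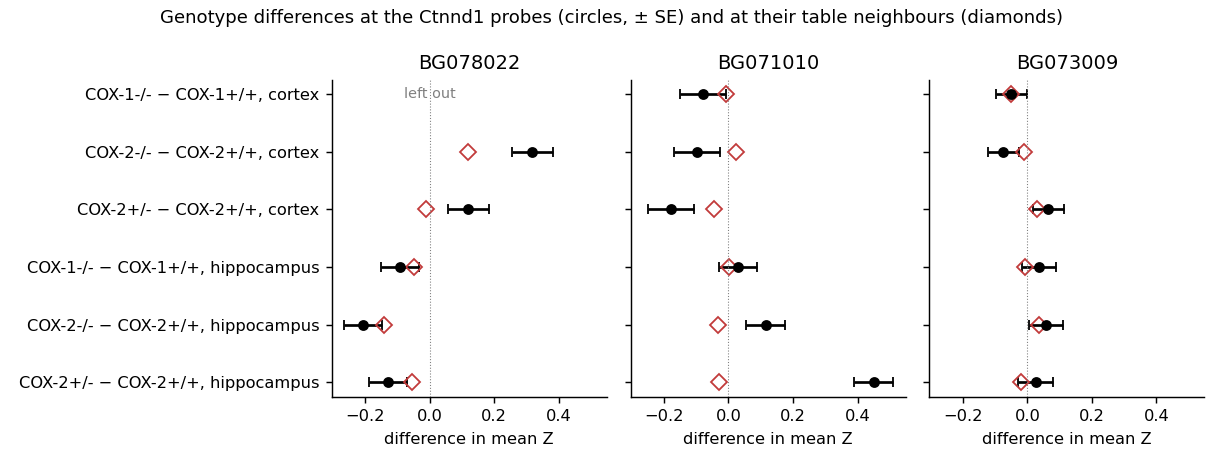
Difference in mean Z between each genotype and its wild type (black circles, bars ± 1 SE from limma) at the 3 Ctnnd1 probes, with the median difference of the probes nearest to each in the table's layout as open red diamonds. The farthest point to the right is BG071010 in COX-2+/- hippocampus at 0.450, whose neighbours have a median of -0.0284. At BG078022 the neighbours lie on the same side of 0 as the probe except in COX-2+/- cortex.

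The regions were ordered differently at BG071010 depending on genotype. In COX-1+/+ mice hippocampus was lower than cortex, with a difference of -0.569 ± 0.0677 (SE, limma adjusted p = 8.25e-06). In COX-1-/- mice it was also lower, with a difference of -0.461 ± 0.0677 (limma adjusted p = 5.72e-05). In COX-2+/- mice hippocampus was higher than cortex by 0.441 ± 0.0677 (limma adjusted p = 0.000191). No array of either region overlapped with the other in these genotypes. The region difference in COX-2+/- mice exceeded that in COX-1+/+ mice by 1.01 ± 0.0957 (SE, limma adjusted p = 4.88e-07). That contrast was added after the values were seen, and it sets the highest region difference at the probe against the lowest. Its p-value takes no account of this choice. The line and the genotype differ together in that contrast and cannot be told apart. limma called 26.4%, 23.3% and 12.6% of probes between the regions in COX-1+/+, COX-1-/- and COX-2+/- mice, and 14.6% for the difference of differences. In the same order 39.1%, 37% and 38.7% of probes had regions that did not overlap.

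The region values of COX-2+/+ and COX-2-/- mice use the cortex arrays on which the gene was selected and are given without a test. At BG078022 hippocampus minus cortex was 0.299 in COX-2+/+ mice and -0.225 in COX-2-/- mice, without overlap in either. In COX-2+/- mice, outside the choice, it was 0.050 (95% interval from -0.0774 to 0.177, limma adjusted p = 0.641). At BG071010 it was -0.188 in COX-2+/+ mice, without overlap, and 0.0254 in COX-2-/- mice, where the arrays overlapped. BG073009 did not overlap between the regions in COX-1-/- mice, at 0.160, in COX-2+/+ mice, at -0.0790, or in COX-2+/- mice, at -0.118. Groups did not overlap at 26.7% of all probes in COX-2+/+ and at 18.7% in COX-2-/- mice.

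The wild-type mice of the separately bred lines also differed. In hippocampus BG078022 was higher in COX-2+/+ than in COX-1+/+ mice by 0.300 ± 0.0586 (SE, 95% interval from 0.174 to 0.425), with a limma adjusted p of 0.0147 and no overlap. This call was lost without COX-2+/+ replicate 2, COX-2+/+ replicate 3 or COX-1+/+ replicate 1, where the adjusted p was 0.0613, 0.0633 and 0.0557. BG071010 differed by -0.0234 there (95% interval from -0.152 to 0.105), and BG073009 by -0.153. The latter read -0.0973, -0.206 and -0.255 in COX-1+/+ and -0.338, -0.316 and -0.364 in COX-2+/+ hippocampus, with no overlap. limma called 5.25% of probes in this comparison, and 33.6% did not overlap. In cortex BG071010 was lower in COX-2+/+ than in COX-1+/+ mice, with a difference of -0.405 and no overlap, and BG073009 differed by 0.000355. There 20.8% of probes of the second section did not overlap. The wild-type difference of 0.300 at BG078022 exceeded in size those between null and wild-type hippocampus, -0.206 and -0.0908, which was not tested.

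**Figure D3:**
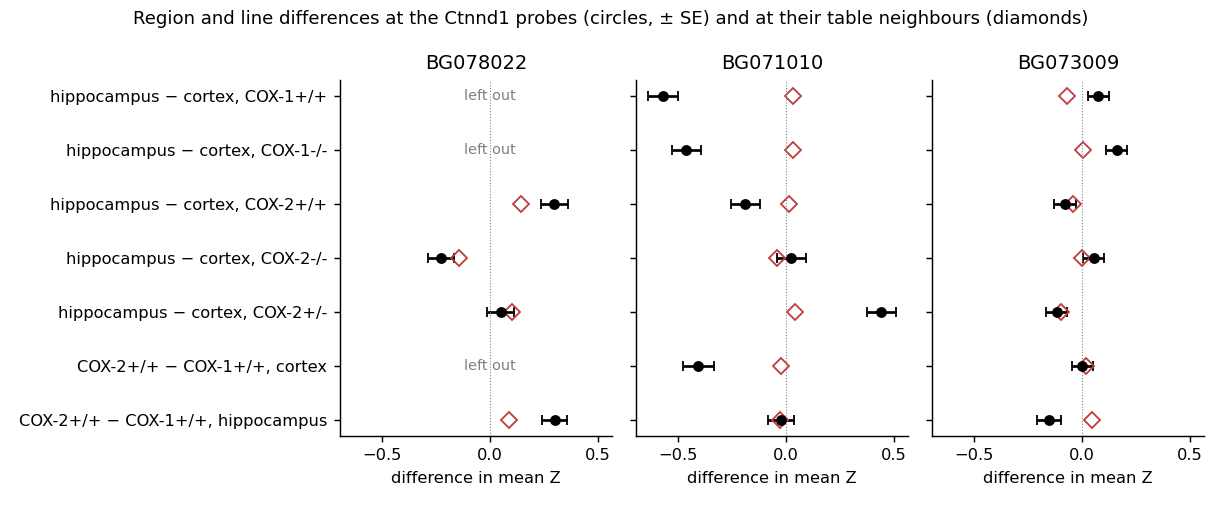
Difference in mean Z between hippocampus and cortex in each genotype, and between the wild-type mice of the lines, at the 3 Ctnnd1 probes (black circles, bars ± 1 SE from limma), with the median difference of the table neighbours of each probe as open red diamonds. At BG071010 the values run from -0.569 in COX-1+/+ to 0.441 in COX-2+/- mice, and the neighbours stay between -0.0437 and 0.0433.

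Correlations across the 24 arrays that are not COX-1 cortex include the cortex arrays on which the gene was selected and are given as a description. Pearson's r was 0.00293 between BG078022 and BG071010, -0.648 between BG078022 and BG073009, and -0.234 between BG071010 and BG073009. For scale, 891 pairs of probes with mean Z above 0 that share a gene, from 527 genes, had a median r of 0.132, and 36.3% of them were below 0. BG073009 is not among these probes, so the scale applies only to the pair of BG078022 and BG071010. Within the 15 hippocampus arrays, BG078022 and BG073009 were inversely related (Pearson's r = -0.792, permutation p = 0.000560, adjusted p over 3 pairs = 0.00168). Spearman's rho was -0.807 (permutation p = 0.000390, adjusted p = 0.00117). Without the 2 arrays farthest from the median of BG078022, r was -0.739. Deviations from the group means gave r = -0.307 with a permutation p of 0.264, so a relation within groups was not shown. How much of the relation lay between groups was not tested. The permutations shuffled all 15 arrays without regard to group. Their p-values therefore count arrays of a group as independent and do not measure a relation between group means. Among the 12 hippocampus arrays other than COX-2+/-, which stood apart at BG071010, BG071010 had r = -0.364 with BG078022 (permutation p = 0.245, adjusted p = 0.367) and r = 0.124 with BG073009 (permutation p = 0.707). Their Spearman's rho was -0.497 (permutation p = 0.104) and 0.224 (permutation p = 0.486). In the 9 cortex arrays of the COX-2 line the 3 pairs had r of -0.215, -0.372 and -0.129, as a description.

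Values in the table also followed the place of a row. Over the 24 arrays, the median r between probes peaked at row distances of 1, 22 and 528. In the first section of the table it was 0.528, 0.557 and 0.471 at these distances, and in the second section 0.455, 0.481 and 0.374. This gives 16 blocks of 24 lines of 22 rows in each section. The layout is inferred from the values, not stated by the files. The neighbours of a probe were taken as the rows up to 2 blocks, 2 lines and 2 places away.

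Over these arrays, which include those of the selection, BG078022 moved with its neighbours. Its r with the median of its 74 neighbours was 0.816 over the 24 arrays, where the median probe of its section had 0.605 and 92.4% of probes had less. In the cortex comparison on which the gene was selected, 71 of the 74 neighbours were higher in COX-2-/- mice, by a median of 0.118, and 2 exceeded the difference at BG078022. In COX-2-/- hippocampus 72 of the 74 were lower, with a median difference of -0.142, and 12 of them were lower by more than BG078022. With the median deviation of the neighbours subtracted from each array, the z ratio in COX-2-/- hippocampus was -0.679 and no longer met the rule, and the wild-type difference between the lines was 0.197 (limma adjusted p = 0.0144).

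BG071010 and BG073009 did not move with theirs. Over the same 24 arrays r with the median of 99 neighbours was -0.133 at BG071010 and -0.0223 at BG073009, and only 2.31% and 4.27% of the probes of that section had lower values. In COX-2+/- hippocampus 0 of the 99 neighbours rose as far as BG071010, and their median difference was -0.0284. With the neighbours subtracted, the difference at BG071010 was 0.472 with a limma adjusted p of 0.0106. The part of membrane position in the remaining differences was not tested.

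**Figure D4:**
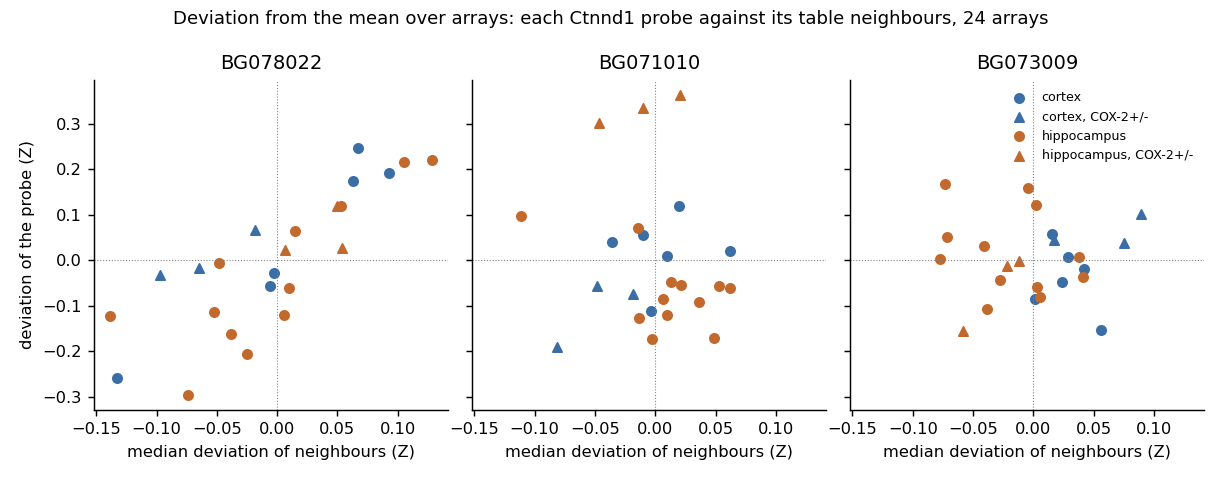
Deviation of each Ctnnd1 probe from its own mean (vertical, in Z) against the median deviation of its table neighbours (horizontal, in Z) on 24 arrays, with triangles for COX-2+/- mice. The points of BG078022 rise together (r = 0.816), those of BG071010 and BG073009 do not (r = -0.133 and -0.0223), and the 3 COX-2+/- hippocampus arrays stand at the top for BG071010.

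The probes whose pattern was most like that of BG078022 over the 24 arrays were those of Lama5, Hspd1, Ppil2, Pcyt1a and Snap25, with r of 0.94, 0.90, 0.90, 0.89 and 0.88. Lama5 encodes a laminin chain, Hspd1 a mitochondrial chaperonin and Snap25 a SNARE protein of synaptic vesicle release. Hspd1, Ppil2 and Pcyt1a occupy the same place as BG078022 in other blocks of the inferred layout, and Lama5 lies 5 rows from it. BG071010 was most like probes of Dbpht2, Nipbl, Prrg4, Smarcb1 and Snf8, with r of 0.92, 0.92, 0.91, 0.90 and 0.89. None of these shares its place in a block, and Dbpht2 lies in the other section of the table. Nipbl loads cohesin onto chromosomes, and Smarcb1 is a core subunit of SWI/SNF chromatin remodelling complexes. In hippocampus the mean Z of Dbpht2 was 1.27 ± 0.0669 in COX-2+/- and 0.591 ± 0.0303 in COX-2+/+ mice, and Nipbl 0.344 ± 0.0341 and -0.0886 ± 0.0211 (SD, n = 3). BG073009 was most like Snx2, Ddost, Cnpy2, Nfx1 and Gnai3, with r from 0.729 to 0.776. These rankings include the arrays on which the gene was selected.

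In the 6 comparisons of a genotype with its wild type, the study's rule was met by 4.37% of all tests of a probe with mean Z above 0, and the shares of the catenin and cadherin list and of the Wnt list lay on either side of it. The array held 23 probes for 15 of 39 catenin and cadherin genes, and 11 of these probes had a mean Z above 0. Of this list 2 calls met the rule over the 6 comparisons, 1 higher and 1 lower, among 57 tests of a probe above 0 (3.51%). Cdh1, the epithelial cadherin bound by p120-catenin, was lower in COX-2-/- hippocampus (1.26 ± 0.0897 against 1.45 ± 0.0554, z ratio -1.73). Vcl, which encodes the actin-linking protein vinculin, was higher in COX-2+/- hippocampus (0.730 ± 0.117 against 0.507 ± 0.108, z ratio 1.86). Neither passed limma, with adjusted p of 0.295 and 0.143. The median difference of the list ran from -0.0537 to 0.0321 across the comparisons, against -0.00830 to 0.00846 for all probes tested.

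The Wnt and beta-catenin list had 30 probes for 18 of 47 genes, and 4 of 70 tests met the rule (5.71%), 2 higher and 2 lower. Wnt2, a secreted ligand, was higher in COX-2-/- cortex (z ratio 2.01), and Fzd3, a Wnt receptor, was higher in COX-1-/- hippocampus (z ratio 1.78). Fzd7, another receptor, was lower in COX-2-/- hippocampus (z ratio -2.10). Btrc, the substrate adaptor of the ubiquitin ligase that marks beta-catenin for degradation, was also lower there (z ratio -1.67). Its groups overlapped, with means of -0.0274 in null and 0.147 in wild-type mice. None of these 4 passed limma, with adjusted p from 0.101 to 0.419. Whether the called probes of either list moved with their layout neighbours was not tested. With layout neighbours subtracted, the number of all probes that met the rule fell from 329 to 147 in COX-2-/- hippocampus. In COX-2-/- cortex it fell from 346 to 186. The fall was smaller elsewhere: from 387 to 292 in COX-1-/- hippocampus and from 111 to 98 in COX-1-/- cortex. In COX-2+/- mice it was from 499 to 441 in hippocampus and from 261 to 197 in cortex. At an unadjusted p under 0.05 limma gave 534 of the 4102 probes tested in COX-1-/- cortex, where only the second section was used. In the other 5 comparisons it gave from 608 of 8011 in COX-2+/- cortex to 1501 of 8041 in COX-2+/- hippocampus.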

How the data were processed

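Per the study's methods, the authors reverse transcribed total RNA with 33P-dCTP, hybridised it to a custom nylon cDNA array, scanned it with a phosphoimager and turned the intensities into Z scores per array. The deposited values are these scores; no depth applies, and the number of arrays limits the precision. Each of the 2 equal sections of the table had a mean of 0 and an SD of 1. Probe genes came from GEO's platform annotation, in which 9663 probes have 1 symbol, 436 several and 6797 none, and 0 of the symbols were updated.

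Members and gene lists were chosen with earlier results of these data known. Group means were modelled in R 4.3.3 with limma 3.58.1, over the 15 arrays of the region concerned or over all 30 for contrasts between regions, with COX-1 cortex values of the first section set to missing. The scripts were tested on simulated data. Named are every Ctnnd1 probe, list probes that met the study's rule, and the 5 probes most like each Ctnnd1 probe. Markers given as examples fall outside that rule and were chosen after their values were seen. A further gene list is not reported here. In COX-1 cortex the SD of differences that divides the z ratio was taken over the second section alone, 0.111. Permutation tests used Python 3.11.15 with scipy 1.17.1 and numpy 2.4.6, and figures matplotlib 3.10.9. Alternatives were quantile normalization, median centring, a filter at a mean Z of 0.5 or none, a running median over rows subtracted, pooled wild-type controls from the COX-1 and COX-2 lines, the SD of the probe's own section, other sets of arrays, an intensity trend, a replicate block and leaving out each array. Subtraction of layout neighbours, the correlations without COX-2+/- arrays, the choice to give comparisons with shared cortex arrays without a test, and the tests of differences between effects were added after the data were seen.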

Additional observations from a re-analysis of the deposited data

Results flagged for a closer look

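At BG071010, the difference between hippocampus and cortex in COX-2+/- mice exceeded that in COX-1+/+ mice by 1.01 in Z, which limma called. The contrast was added after the values were seen and sets the highest region difference at the probe against the lowest. At the same probe all 3 COX-2+/- arrays lay above the COX-2+/+ mean in hippocampus (0.450) and below it in cortex (-0.179). At BG078022 all 3 COX-2-/- arrays lay above the wild-type mean in cortex (0.319), the contrast on which the gene was selected, and below it in hippocampus (-0.206). The COX-2+/- arrays did the same, at 0.120 in cortex and -0.129 in hippocampus. These last 3 oppositions between the regions share the cortex arrays of the selection, and the differences between the regions were not tested.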

How the results depend on the processing

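With the wild types of the COX-1 and COX-2 lines pooled as control, the COX-1-/- cortex difference at BG071010 reversed, to 0.124 with a z ratio of 1.47, and the COX-2+/- hippocampus difference at BG078022 reversed, to 0.0205 with a z ratio of 0.151. In that setting the z ratio at BG071010 was -3.29 in COX-2-/- cortex and -3.76 in COX-2+/- cortex (a difference of -0.381), and that at BG078022 was -2.38 in COX-1-/- hippocampus, now past the rule, and -0.478 in COX-2-/- hippocampus, no longer past it. With layout neighbours subtracted, the z ratio at BG078022 in COX-2-/- hippocampus was -0.679, and its differences between hippocampus and cortex were 0.156 in COX-2+/+, -0.0942 in COX-2-/- and -0.0469 in COX-2+/- mice, the last of these reversed. With a mean Z above 0.5 required, BG071010 in COX-2+/- hippocampus kept its z ratio of 3.77 but was left out by the filter. With limma in place of the rule, the calls fell from 4 to 0 among Wnt and beta-catenin genes and from 2 to 0 among catenins and cadherins. Apart from the filter, whose construction gives it, the cause was not tested.

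Leaving out each array in turn moved the COX-1-/- cortex difference at BG071010 between -0.129 and 0.0142 (z ratio -1.09 to 0.125). It moved the z ratio in COX-2-/- hippocampus between -2.12 and -1.48 at BG078022 and between 0.632 and 1.59 at BG071010. The wild-type difference between the lines in hippocampus ranged from 0.276 to 0.333 at BG078022 and from -0.0542 to 0.00545 at BG071010. The COX-2+/- hippocampus difference at BG071010 had a z ratio from 3.41 to 3.77 and met the rule each time. The change with genotype in the difference between BG071010 and BG073009 on the same array moved as well. It ranged from -0.0811 to 0.0592 in COX-1-/- cortex and from -0.000806 to 0.136 in COX-2-/- hippocampus. In COX-1-/- hippocampus it ranged from -0.0342 to 0.0208, and was 0.0115 with layout neighbours subtracted. With all 15 hippocampus arrays, r with BG071010 was 0.0946 for BG078022 and -0.276 for BG073009, both reversed.

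Replicate numbers did not pair the arrays: deviations of same-numbered arrays had r from -0.0490 to 0.165 over 13 comparisons, and in 0 of them was every pair over 0.1. With the replicate block, the COX-2+/- hippocampus difference at BG071010 stayed at 0.450 (limma adjusted p = 0.00586), and no call of a tested comparison changed.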
